A study of Homo sapiens with 6 samples.

Results

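The collagen and laminin genes were taken from the protein-coding genes of the count tables whose symbol is COL followed by a number, A and a number, or LAMA, LAMB or LAMC followed by a number. Of 63677 rows, 55 are described here, of which 44 encode collagen chains and 11 encode laminin chains. The cells were SW480, an established line from a human colorectal adenocarcinoma, transduced with a lentiviral vector that expresses either green fluorescent protein (GFP) or POU5F1B, a retrogene copy of the pluripotency gene POU5F1, from a doxycycline-inducible promoter. Both groups therefore carried a vector and were grown for 72 h with 1 µg/mL doxycycline, so the contrast is between the expressed proteins and not between induced and uninduced cells. Per the study's methods, transduced cells were selected with puromycin. Polyadenylated RNA was sequenced from 3 GFP and 3 POU5F1B libraries. The labels do not say whether the replicates came from separate transductions or cultures, so the p-values measure only the spread between these libraries, which may be technical.

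Collagens are trimers of alpha chains. The fibril-forming types (I, II, III, V, XI) make the fibres of connective tissue, type IV makes the sheet of the basement membrane on which epithelia rest, and others decorate fibrils, form beaded filaments or span the plasma membrane. A laminin is a cross-shaped trimer of 1 alpha, 1 beta and 1 gamma chain, named by its chain numbers. Laminin-511 (LAMA5, LAMB1, LAMC1) is widespread in epithelial basement membranes, the gut included, and LAMA3 and LAMB3 encode chains of the laminin that anchors epithelial cells at hemidesmosomes.

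The libraries held between 10767947 and 12787637 counts, and levels are given as CPM, in which counts are divided by the library size after scaling by the trimmed mean of M values (TMM). POU5F1B itself had 6, 5 and 1 counts in GFP replicates 1, 2 and 3 and 15027, 11393 and 1458 in the POU5F1B replicates, so every library matched its label, with POU5F1B replicate 3 far below the other two. GFP replicate 3 stood apart from its own group. The chi-square per degree of freedom over genes was 4.21 between GFP replicates 1 and 2, but 89.5 and 78.7 between GFP replicate 3 and each of these. A weighting of libraries by their fit gave GFP replicate 3 a weight of 0.111, against 0.575 to 2.79 for the others. The log2 fold changes of the tested chains are therefore given both over 6 libraries and over replicates 1 and 2 alone. That subset also drops POU5F1B replicate 3, whose chi-square was 17.5 and 20.9 against POU5F1B replicates 1 and 2, beside 5.38 between those. Its libraries were picked for their agreement, and 40.2% of all tested genes had an unadjusted limma voom p under 0.05 in it. The p-values of that subset are therefore only a description. The 10 epithelial markers were dominated by the keratins KRT8 and KRT18, and their summed level was 6366 to 9587 CPM in GFP and 7909 to 8932 CPM in POU5F1B libraries. CDX1 had at most 2 counts in any library. Of the 10 fibroblast markers, 4 (FAP, POSTN, TCF21 and DPT) had 0 counts in all 6 libraries, and the summed level of the list was 18.7 to 47.1 CPM in GFP and 22.9 to 30.0 CPM in POU5F1B libraries, most of it PDGFRB and ACTA2. Of 6 endothelial markers found, 2 (CLDN5 and EMCN) had 0 counts in all 6 libraries and only VWF had more than 2 counts in any. The summed level was 1.31 to 6.15 CPM in GFP and 2.66 to 6.53 CPM in POU5F1B libraries.

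Of the 55 chains, 8 had 0 counts in all 6 libraries, 15 had between 1 and 9 counts at most, and 32 had 10 or more counts in at least 1 library. The 8 at 0 were all collagens (COL3A1, COL4A6, COL6A6, COL9A1, COL11A1, COL19A1, COL21A1 and COL25A1). COL3A1 is an abundant collagen of fibroblasts. A count of 0 allows a level of up to 3 counts, which was 0.229 to 0.278 CPM, on the TMM-scaled library sizes, depending on the library. The 9 laminin chains with 10 or more counts left out LAMA1, with at most 5 counts, and LAMB4, with at most 1 count.

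The 11 laminin chains together summed to 1279, 1194 and 868 CPM in GFP replicates 1, 2 and 3 and to 1078, 877 and 1063 CPM in the POU5F1B replicates. The 44 collagen chains summed to 871, 818 and 369 CPM in GFP and to 618, 436 and 629 CPM in POU5F1B libraries. GFP replicate 3 was the lowest library in both sums, and the groups overlapped in both.

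**Figure D1:**
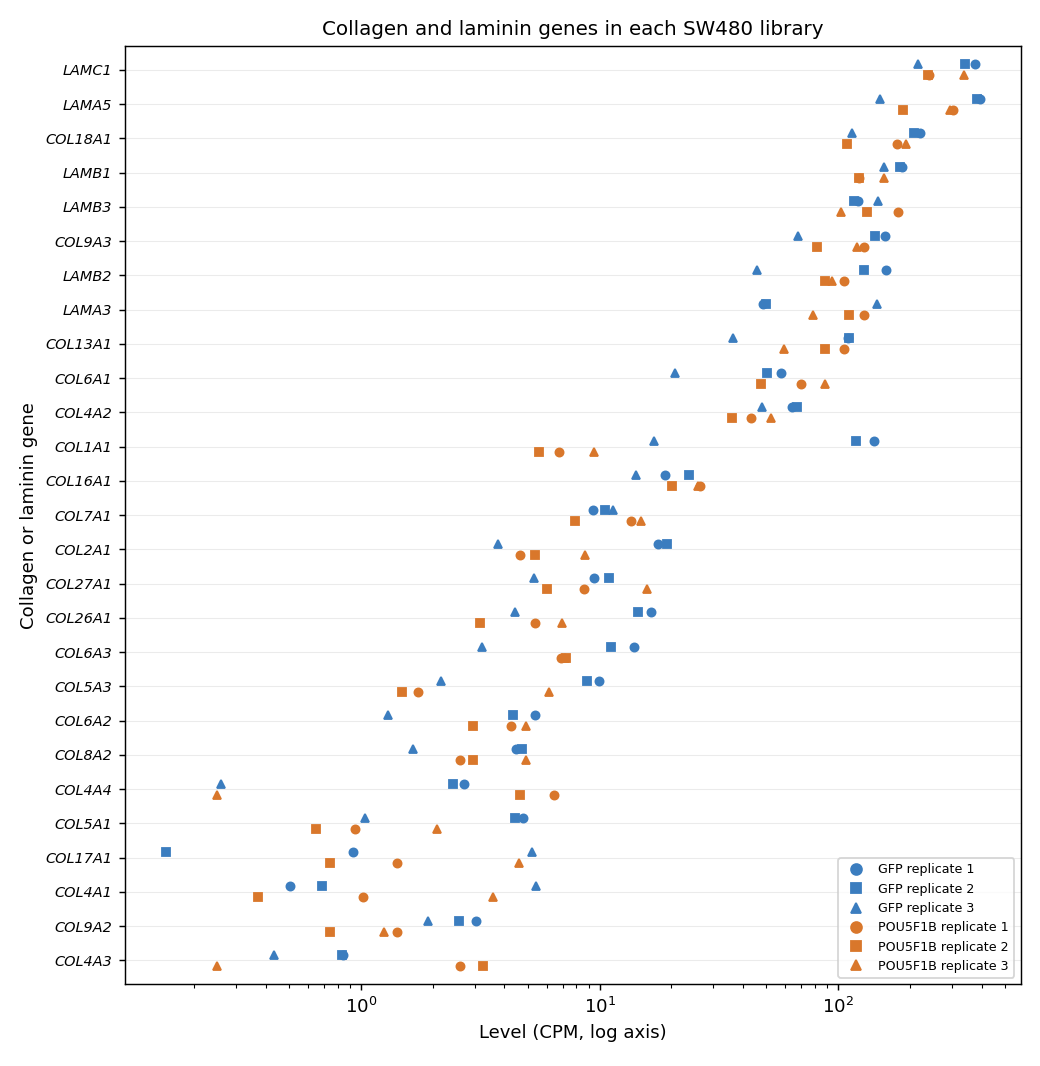
Level of each of the 27 tested chains in every library, in CPM on a log axis, ordered by mean level and marked by group and replicate. LAMC1 and LAMA5 lie at the top, and the triangles of GFP replicate 3 depart from the other GFP points in many chains.

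Here levels were compared between genes per kilobase of annotated exon. On that scale LAMC1 and LAMB3 were the highest of the 27 tested chains in both groups, with mean levels of 36.6 and 27.6 CPM per kb in GFP cells and 32.1 and 29.5 CPM per kb in POU5F1B cells. The highest collagens per kb were COL9A3, with mean levels of 25.3 CPM per kb in GFP and 22.7 CPM per kb in POU5F1B cells, and COL18A1, with 21.3 and 18.7 CPM per kb. COL9A3 encodes a chain of collagen IX, which coats fibrils in cartilage. COL18A1 encodes the basement membrane collagen whose cleaved end is endostatin. Of the exon length of COL18A1, 18.5% overlaps exons of SLC19A1 on the opposite strand, and since the strand setting of the counting was not stated, the level of COL18A1 is uncertain.

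Promoter sequence is shown for some of the chains discussed below, to set windows between head-to-head collagen IV genes beside those of 3 other chains. The choice leaves out other chains discussed below, COL5A1 and COL5A3 among them. The collagen IV genes lie in head-to-head pairs: the start sites of COL4A1 and COL4A2 are 127 bases apart on chromosome 13, those of COL4A4 and COL4A3 are 419 bases apart on chromosome 2, and those of COL4A6 and COL4A5 are 380 bases apart on chromosome X (RefSeq, GRCh38.p14). Below are the 126 bases between the COL4A1 and COL4A2 start sites (chr13:110307158-110307283, plus strand) and, for 4 other chains, the 250 bases before the start site: COL4A3, whose window lies wholly between its start site and that of COL4A4 (chr2:227164374-227164623, plus strand), COL9A2 (chr1:40317287-40317536, minus strand), LAMB1 (chr7:108003162-108003411, minus strand) and LAMA3 (chr18:23872770-23873019, plus strand), all from RefSeq on GRCh38.p14, 5′ to 3′. For a gene with several start sites only the first listed was printed, so a window can belong to an alternative promoter. Capitals mark matches, on either strand, to any of the 5 motifs named after the sequences.
COL4A1-COL4A2: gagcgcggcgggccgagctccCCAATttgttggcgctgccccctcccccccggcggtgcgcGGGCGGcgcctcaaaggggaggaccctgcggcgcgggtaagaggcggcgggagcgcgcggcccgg
COL4A3: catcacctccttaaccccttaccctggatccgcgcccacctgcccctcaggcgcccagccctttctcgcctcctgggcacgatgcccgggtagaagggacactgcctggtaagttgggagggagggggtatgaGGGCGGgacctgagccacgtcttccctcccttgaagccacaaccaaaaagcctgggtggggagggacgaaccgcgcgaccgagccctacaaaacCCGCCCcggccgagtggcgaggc
COL9A2: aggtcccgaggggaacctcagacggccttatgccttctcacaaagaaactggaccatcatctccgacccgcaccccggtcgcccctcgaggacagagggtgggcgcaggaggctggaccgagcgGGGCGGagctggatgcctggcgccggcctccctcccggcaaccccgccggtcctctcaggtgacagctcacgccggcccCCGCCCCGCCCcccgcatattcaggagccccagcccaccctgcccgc
LAMB1: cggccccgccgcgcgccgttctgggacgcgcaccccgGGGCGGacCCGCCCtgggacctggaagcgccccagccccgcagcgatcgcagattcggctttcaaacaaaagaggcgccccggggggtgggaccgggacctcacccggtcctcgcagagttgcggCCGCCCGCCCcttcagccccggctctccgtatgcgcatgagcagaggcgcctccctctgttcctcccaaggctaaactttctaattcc
LAMA3: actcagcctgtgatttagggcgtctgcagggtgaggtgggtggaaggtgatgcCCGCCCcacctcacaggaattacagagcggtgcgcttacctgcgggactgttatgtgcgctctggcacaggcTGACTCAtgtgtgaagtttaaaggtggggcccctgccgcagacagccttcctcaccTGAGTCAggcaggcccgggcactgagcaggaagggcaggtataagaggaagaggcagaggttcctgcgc

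The windows of 41 of the 55 chains were found, in 55 windows of 250 bases, since some genes have several start sites. COL1A1 is among the 14 chains without a window. The GC box (GGGCGG) was in 32 of the 55 chain windows and in 42.6% of all 35116 windows of that length. The CCAAT box (CCAAT) was in 14 chain windows and in 32% of all windows, the TATA box (TATAAA) in 8 and 10.7%, and the AP-1 site (TGANTCA) in 3 and 6.57%. The octamer (ATGCAAAT), the sequence that POU family factors such as OCT4 are known to bind, was in 2 chain windows, those of COL19A1 and COL23A1, and in 1.63% of all windows. COL19A1 had 0 counts in all 6 libraries, and COL23A1 had 1 count in 1 library. Of the windows printed here, the COL4A1-COL4A2 stretch holds a CCAAT box and a GC box, LAMA3 holds 2 AP-1 sites and a GC box, and the others hold GC boxes only. These matches are letters in a window and not shown to be bound in these cells.

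To ask which chains differ when POU5F1B is expressed, the 6 libraries were compared with limma voom over all 14286 genes that passed a filter on low counts, with Benjamini-Hochberg adjustment over those genes. Of the 55 chains, 27 passed the filter, 21 collagens and 6 laminins, and a chain that is high in 1 group only can have passed through that group. The threshold was an adjusted p under 0.05 and a change of more than 2-fold. None of the 27 chains passed it by limma voom, against 0% of all tested genes, and none reached an adjusted p under 0.05 regardless of fold, again 0% of all tested genes. At an unadjusted p under 0.05, limma voom gave 3 of the 27 chains, beside 11.9% of all tested genes, and the quasi-likelihood test of edgeR gave the same 3 chains, beside 12% of all tested genes. COL1A1, COL9A2 and LAMB1 were these 3, all in the direction of GFP (background 5.82%), and 0 were in the direction of POU5F1B (background 6.07%). The same 3 chains were those whose groups did not overlap, 3 of 27 against 19.4% of all tested genes, with 3 lower in POU5F1B against 9.24% and 0 higher against 10.2%. These are small counts near the background and say nothing of the chains as a group. The quasi-likelihood test of edgeR placed 0 chains past the threshold, and the DESeq2 Wald test placed 1 chain, COL1A1, past the threshold, beside 1.62% of all tested genes.

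Among the laminins, LAMA3 and LAMB3, the alpha and beta chains of hemidesmosome anchorage, did not separate the groups. LAMA3 was at 48.4, 49.8 and 145 CPM in GFP replicates 1, 2 and 3 and at 129, 111 and 78.5 CPM in the POU5F1B replicates. GFP replicate 3 was the highest of all 6 libraries, while GFP replicates 1 and 2 were the lowest pair. The log2 fold change of LAMA3, POU5F1B over GFP and given with its standard error as throughout, was 0.57 ± 0.43 over 6 libraries (limma voom adjusted p = 0.637). Over replicates 1 and 2 it was 1.27 (limma voom adjusted p = 4.57e-06). LAMB3 was at 121, 117 and 147 CPM in GFP and at 177, 131 and 103 CPM in POU5F1B replicates, with the GFP libraries lying between POU5F1B replicates 3 and 1, for which the log2 fold change was 0.07 ± 0.21 (adjusted p = 0.928 by limma voom). In replicates 1 and 2 it was 0.35 (limma voom adjusted p = 0.0469), under a 2-fold change.

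LAMB1, the beta chain of laminin-511 (ENSG00000091136; chromosome 7, 107564244 to 107643658, minus strand, GRCh37), was at 185, 180.5 and 156 CPM in GFP replicates 1, 2 and 3. It was at 123, 122 and 155 CPM in the POU5F1B replicates. The groups did not overlap, but GFP replicate 3 and POU5F1B replicate 3 were less than 1 CPM apart (155.93 and 155.10 CPM). GFP cells averaged 174 ± 15.6 CPM and POU5F1B cells 133 ± 18.9 CPM (SD, n = 3 each, as in later means), and the log2 fold change was -0.39 ± 0.14, with an adjusted p of 0.353 by limma voom. Over replicates 1 and 2 the log2 fold change was -0.59 (limma voom adjusted p = 2.05e-04). Exons of DLD on the opposite strand cover 1.61% of the exon length of LAMB1.

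The alpha and gamma chains of laminin-511 and the beta chain LAMB2 overlapped between groups. LAMA5 was at 391, 379.9 and 150.1 CPM in GFP and at 303, 187 and 293 CPM in POU5F1B replicates 1, 2 and 3 (log2 fold change -0.14 ± 0.40, limma voom adjusted p = 0.92). LAMC1, the gamma chain shared by most laminins, was at 375, 339 and 215 CPM in GFP and at 239.6, 237 and 336 CPM in POU5F1B (log2 fold change -0.17 ± 0.24, limma voom adjusted p = 0.814). LAMB2, which replaces LAMB1 in laminin-521, was at 158, 128 and 45.5 CPM in GFP and at 106, 88.1 and 94.2 CPM in POU5F1B (log2 fold change -0.03 ± 0.44, limma voom adjusted p = 0.987). In all 3 genes GFP replicate 3 was the lowest of the 6 libraries and GFP replicates 1 and 2 were the highest pair, with POU5F1B replicate 3 just below GFP replicate 2 in LAMC1. The log2 fold changes of LAMA5, LAMC1 and LAMB2 over replicates 1 and 2 were -0.70, -0.59 and -0.56 (limma voom adjusted p = 0.00501, 1.68e-04 and 0.00384), each under a 2-fold change.

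**Figure D2:**
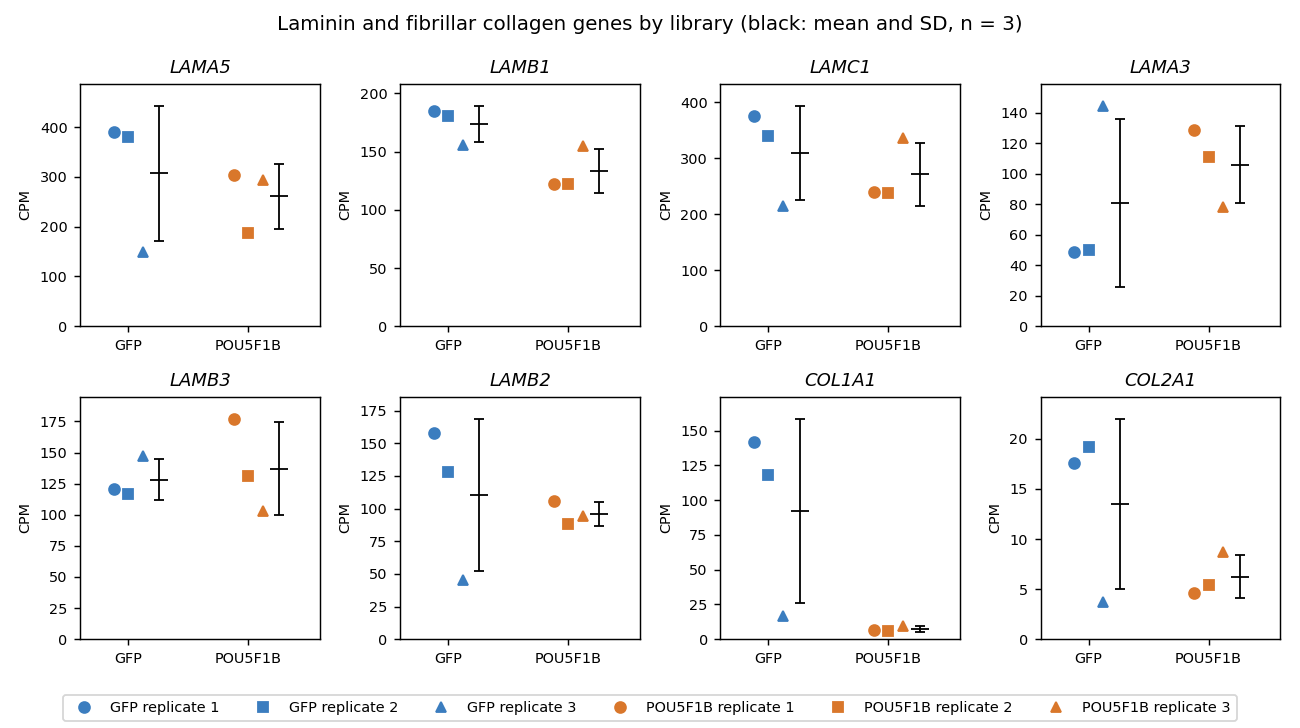
Level in CPM of the chains of laminin-511 (LAMA5, LAMB1, LAMC1), of the laminin chains LAMA3, LAMB3 and LAMB2 and of 2 fibril-forming collagens in each library, with the mean and SD of each group of 3 libraries in black. The groups are apart in LAMB1 and COL1A1, and GFP replicate 3 lies far from GFP replicates 1 and 2 in LAMA5, LAMA3, COL1A1 and COL2A1.

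The balance of chains within a library does not depend on the library size. Count ratios were computed for 11 pairs of chains, and in 3 of them, COL9A3 to COL9A2, COL6A1 to COL6A2 and COL6A1 to COL6A3, the groups did not overlap. Of all tested genes, 19.4% had levels without overlap between the groups. That is a share of single genes, and no such share was computed for ratios. COL9A2 itself had levels without overlap. Several pairs share a chain, and the ratios are given as a description without a test. As ratios of counts they also follow exon length, so they compare libraries and not the levels of the chains in a pair. The alpha chain ratio LAMA3 to LAMA5 was 0.124, 0.131 and 0.963 in GFP and 0.424, 0.594 and 0.268 in POU5F1B libraries, so the groups overlapped through GFP replicate 3 alone. LAMB3 to LAMB1 was 0.654, 0.646 and 0.943 in GFP and 1.45, 1.07 and 0.663 in POU5F1B libraries, where both replicate 3 libraries overlapped the other group. Per kilobase of exon this ratio was 2.62, 2.59 and 3.77 in GFP and 5.79, 4.29 and 2.65 in POU5F1B libraries.

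**Figure D3:**
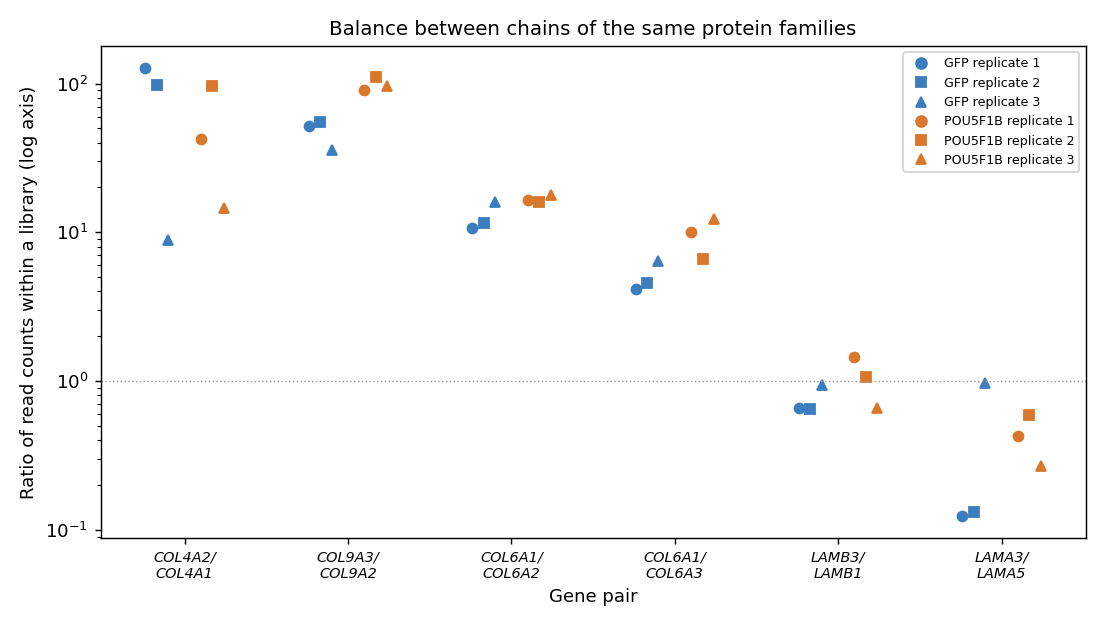
Ratio of counts between pairs of chains in each library, on a log axis, marked by group and replicate. COL9A3 to COL9A2, COL6A1 to COL6A2 and COL6A1 to COL6A3 are higher in every POU5F1B library than in any GFP library, and the GFP replicate 3 point of LAMA3 to LAMA5 lies above all POU5F1B points. In both COL6A1 ratios the margin between GFP replicate 3 and POU5F1B replicate 2 is small.

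Among the fibril-forming collagens, COL1A1 had the largest fold change of any tested chain. It encodes a chain of collagen I, the main protein of connective tissue fibres (ENSG00000108821; chromosome 17, 48261462 to 48278993, minus strand, GRCh37). COL1A1 counts were 1681, 1553 and 194 in GFP replicates 1, 2 and 3 and 86, 60 and 114 in the POU5F1B replicates. On the CPM scale these were 142, 118 and 16.9 in GFP and 6.76, 5.56 and 9.49 in POU5F1B libraries. GFP replicate 3 was closer to the POU5F1B libraries than to GFP replicates 1 and 2, but still above each of them. GFP cells averaged 92.3 ± 66.3 CPM and POU5F1B cells 7.27 ± 2.01 CPM, 12.7 times lower. The log2 fold change was -3.22 ± 1.09, with an adjusted p of 0.340 by limma voom. The adjusted p was 0.196 by edgeR and 9.32e-06 by DESeq2. Without GFP replicate 3 the log2 fold change was -4.18 (limma voom adjusted p = 2.36e-04), and over replicates 1 and 2 alone it was -4.39 (limma voom adjusted p = 1.81e-08).

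The partner chain COL1A2, which pairs with COL1A1 in the collagen I trimer, had only 19, 19 and 1 counts in GFP and 0, 2 and 1 counts in POU5F1B libraries and was not tested. The COL1A1 RNA in GFP replicates 1 and 2 therefore came with little COL1A2 and with no COL3A1 count. COL5A2 had 5, 4 and 6 counts in GFP and 1, 0 and 0 in POU5F1B libraries, below the filter. These counts are too few for a fold.

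Of the other 4 tested fibril-forming collagens, chosen here after their values were seen, 3 were likewise highest in GFP replicates 1 and 2. COL2A1, the collagen of cartilage, was at 17.6, 19.2 and 3.74 CPM in GFP and at 4.64, 5.38 and 8.66 CPM in POU5F1B libraries. COL5A1 was at 4.8, 4.42 and 1.04 CPM in GFP and at 0.944, 0.649 and 2.08 CPM in POU5F1B, and COL5A3 at 9.94, 8.84 and 2.18 CPM in GFP and at 1.73, 1.48 and 6.16 CPM in POU5F1B. In all 3 genes GFP replicates 1 and 2 were the highest pair and POU5F1B replicate 3 was above GFP replicate 3. Their log2 fold changes over 6 libraries were -0.87 ± 0.68, -1.35 ± 0.74 and -1.19 ± 0.77, with limma voom adjusted p from 0.516 to 0.650. Over replicates 1 and 2 they were -1.89, -2.49 and -2.52 (limma voom adjusted p = 2.78e-05, 3.83e-04 and 5.65e-05). COL27A1, the last tested fibril-forming chain, was highest in POU5F1B replicate 3, at 15.8 CPM, and had a log2 fold change of 0.19 ± 0.43 over 6 libraries and -0.49 over replicates 1 and 2. The summed level of the 11 fibril-forming chains was 186, 165 and 30.2 CPM in GFP and 23.4, 19.6 and 42.8 CPM in POU5F1B libraries, most of it COL1A1 in GFP replicates 1 and 2. POU5F1B replicate 3 was above GFP replicate 3 in this sum.

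The fibroblast list was also highest in GFP replicates 1 and 2, with summed levels of 47.1, 47.1 and 18.7 CPM in GFP replicates 1, 2 and 3 and 25.2, 22.9 and 30.0 CPM in the POU5F1B replicates. PDGFRB, a receptor of fibroblasts and pericytes, was at 28.2, 28.7 and 7.22 CPM in GFP and at 8.73, 7.69 and 12.5 CPM in POU5F1B libraries. As for COL2A1, COL5A1 and COL5A3, GFP replicates 1 and 2 were highest and POU5F1B replicate 3 was above GFP replicate 3. The log2 fold change of PDGFRB was -0.95 ± 0.59 over 6 libraries and -1.80 over replicates 1 and 2 (limma voom adjusted p = 0.569 and 9.73e-06). ACTA2, the smooth muscle actin of myofibroblasts, was at 18.6, 17.6 and 7.57 CPM in GFP and at 16.3, 15.2 and 16.5 CPM in POU5F1B libraries. DCN and LUM, proteoglycans of fibroblasts, had 0 counts in GFP replicates 1 and 2. LUM had 34 counts in GFP replicate 3 and 5 in POU5F1B replicate 3, and DCN had 3 and 1. Of the epithelial markers, CDH1, the adhesion protein E-cadherin, was at 33.7, 30.2 and 72.7 CPM in GFP and at 164, 159 and 98.3 CPM in POU5F1B libraries, without overlap (log2 fold change 1.71 ± 0.36, limma voom adjusted p = 0.207, and 2.33 over replicates 1 and 2, limma voom adjusted p = 1.81e-08). EPCAM, an epithelial surface protein, was at 86.8, 89.4 and 519 CPM in GFP and at 320.3, 331 and 252 CPM in POU5F1B libraries (log2 fold change 0.92 ± 0.65, limma voom adjusted p = 0.610, and 1.87 over replicates 1 and 2, limma voom adjusted p = 1.24e-08). Both were lowest in GFP replicates 1 and 2, where COL1A1, COL2A1, COL5A1 and COL5A3 were highest. Among the other tested epithelial markers, KRT8, KRT18, KRT19 and VIL1 had log2 fold changes of 0.17, 0.24, 0.72 and 1.16 over replicates 1 and 2. Those of KRT20 and CDX2 were -0.46 and -0.58, so the markers did not all move the same way. The part of the fibroblast and epithelial lists in these differences was not tested. These cells are 1 line in culture, and whether fewer cells carried COL1A1 RNA or each cell carried less cannot be told apart in bulk RNA.

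Of the collagens that associate with fibrils, COL9A2, a chain of the cartilage collagen IX (ENSG00000049089; chromosome 1, 40766161 to 40783485, minus strand, GRCh37), had 36, 34 and 22 counts in GFP replicates 1, 2 and 3 and 18, 8 and 15 counts in the POU5F1B replicates. Each GFP library was above each POU5F1B library. GFP cells averaged 2.51 ± 0.563 CPM and POU5F1B cells 1.14 ± 0.351 CPM, 2.21 times lower, and the log2 fold change was -1.13 ± 0.36, with an adjusted p of 0.317 by limma voom. Over replicates 1 and 2 it was -1.39 (limma voom adjusted p = 0.0191). COL9A3, the collagen IX chain with far more RNA, was at 157, 142 and 68.0 CPM in GFP and at 128, 81.6 and 119.6 CPM in POU5F1B libraries (log2 fold change -0.09 ± 0.34, limma voom adjusted p = 0.944). In replicates 1 and 2 it was -0.55 (limma voom adjusted p = 0.0204), under a 2-fold change. GFP replicate 3 was the lowest library for COL9A3 and the groups overlapped. Exons of TCFL5 on the opposite strand cover 3.20% of its exon length. The ratio of COL9A3 to COL9A2 counts was 51.9, 54.7 and 35.5 in GFP and 90.7, 110 and 95.8 in POU5F1B libraries, with no overlap. The third collagen IX chain, COL9A1, had 0 counts in all 6 libraries. COL16A1, which also associates with fibrils, had a log2 fold change of 0.37 ± 0.23 over 6 libraries and 0.12 over replicates 1 and 2.

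The basement membrane collagens of type IV were present unequally. COL4A2 (ENSG00000134871; chromosome 13, 110958159 to 111165556, plus strand, GRCh37) had 759, 883 and 553 counts in GFP replicates 1, 2 and 3 and 547, 387 and 627 counts in the POU5F1B replicates. COL4A1, its head-to-head neighbour and partner in the trimer (ENSG00000187498; chromosome 13, 110801310 to 110959504, minus strand, GRCh37), had 6, 9 and 62 counts in GFP and 13, 4 and 43 counts in POU5F1B libraries. COL4A1 was thus high in both replicate 3 libraries and low in the other 4, while COL4A2 did not follow it. The ratio of COL4A2 to COL4A1 counts was 126.5, 98.1 and 8.92 in GFP and 42.1, 96.8 and 14.6 in POU5F1B libraries. The log2 fold change was -0.45 ± 0.20 for COL4A2 (limma voom adjusted p = 0.431) and -0.09 ± 1.09 for COL4A1 (limma voom adjusted p = 0.983). With replicates 1 and 2 alone that of COL4A2 was -0.75 (limma voom adjusted p = 5.23e-04), under a 2-fold change, and that of COL4A1 was 0.094.

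The other head-to-head pair, COL4A3 and COL4A4, encodes chains of the kidney glomerular basement membrane and was chosen here after its values were seen. COL4A3 had 10, 11 and 5 counts in GFP and 33, 35 and 3 counts in POU5F1B libraries, and COL4A4 had 32, 32 and 3 counts in GFP and 82, 50 and 3 counts in POU5F1B libraries. Both were highest in POU5F1B replicates 1 and 2 and lowest in the replicate 3 libraries. The log2 fold changes over 6 libraries were 0.90 ± 0.99 and 0.67 ± 1.41, and over replicates 1 and 2 they were 1.72 and 1.09 (limma voom adjusted p = 0.00487 and 0.0136). Exons of MFF-DT on the opposite strand cover 6.82% of the exon length of COL4A3. Their partner COL4A5 had 4 counts in POU5F1B replicate 3 and none in the other 5 libraries.

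The beaded filament collagen VI, which links cells to the surrounding matrix, was carried mostly by COL6A1. COL6A1 was at 57.5, 50.4 and 20.8 CPM in GFP replicates 1, 2 and 3 and at 69.6, 47.5 and 87.5 CPM in the POU5F1B replicates. COL6A2 was at 5.39, 4.34 and 1.31 CPM in GFP and at 4.25, 2.97 and 4.91 CPM in POU5F1B, and COL6A3 at 13.9, 11.1 and 3.22 CPM in GFP and at 6.92, 7.23 and 7.16 CPM in POU5F1B. GFP replicate 3 was the lowest library for all 3 chains, and the groups overlapped in each. The log2 fold changes were 0.75 ± 0.41, 0.32 ± 0.54 and -0.17 ± 0.53 (limma voom adjusted p = 0.514, 0.846 and 0.931). With replicates 1 and 2 alone they were 0.10, -0.43 and -0.82 (limma voom adjusted p = 0.676, 0.271 and 0.00900), so COL6A2 turned and COL6A3 was under a 2-fold change. The ratio of COL6A1 to COL6A2 counts was 10.7, 11.6 and 15.9 in GFP and 16.4, 16.0 and 17.8 in POU5F1B libraries. That of COL6A1 to COL6A3 was 4.14, 4.53 and 6.46 in GFP and 10.1, 6.58 and 12.2 in POU5F1B libraries, and in both ratios every POU5F1B library was above every GFP library. The margin between GFP replicate 3 and POU5F1B replicate 2 was small, at 15.93 and 16.03 for COL6A1 to COL6A2 and 6.46 and 6.58 for COL6A1 to COL6A3. COL6A2 had only 15 counts in GFP replicate 3.

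Of the membrane-spanning collagens, COL13A1 was at 109.9, 110.3 and 36.4 CPM in GFP and at 105.6, 88.1 and 58.9 CPM in POU5F1B libraries, with both replicate 3 libraries lowest for which the log2 fold change was 0.10 ± 0.46 (adjusted p = 0.956 by limma voom), a sign that turned under 4 of the 9 alternatives and with some libraries left out, and it was -0.20 over replicates 1 and 2. COL17A1, a hemidesmosome component, chosen after its values were seen, had 11, 2 and 60 counts in GFP and 18, 8 and 55 counts in POU5F1B libraries. COL17A1 and COL4A1 were the 2 of 27 chains that were higher in both replicate 3 libraries than in all 4 others, against 13.8% of all tested genes. The log2 fold change of COL17A1 was 0.88 ± 1.20 over 6 libraries and 1.37 over replicates 1 and 2 (limma voom adjusted p = 0.806 and 0.154). COL18A1 was at 219, 208 and 115 CPM in GFP and at 176, 109 and 192 CPM in POU5F1B, and its log2 fold change was -0.17 ± 0.31 (adjusted p = 0.864 by limma voom). In replicates 1 and 2 it was -0.63 (limma voom adjusted p = 0.00978), under a 2-fold change. COL26A1, whose function is little known, named after its values were seen, was at 16.4, 14.5 and 4.44 CPM in GFP and at 5.35, 3.15 and 6.99 CPM in POU5F1B libraries. Its log2 fold change was -1.05 ± 0.58 over 6 libraries and -1.88 over replicates 1 and 2 (limma voom adjusted p = 0.520 and 1.54e-04). The remaining tested chains, COL7A1 of the anchoring fibrils and COL8A2 of hexagonal networks, had log2 fold changes of 0.18 ± 0.28 and 0.02 ± 0.48 over 6 libraries and 0.07 and -0.74 over replicates 1 and 2.

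Chains under the filter on low counts included 5 with 10 or more counts in a library, namely COL1A2, COL11A2, LAMA2, LAMA4 and LAMC3. LAMA2, the alpha chain of muscle laminin, had 0, 1 and 105 counts in GFP and 4, 6 and 32 counts in POU5F1B libraries, and LAMA4 had 0, 0 and 10 counts in GFP and 0, 0 and 1 counts in POU5F1B. Both were highest in GFP replicate 3. The fibroblast markers did not go together in that library. It held most of the LUM counts but was the lowest library for PDGFRB and ACTA2, at 7.22 and 7.57 CPM.

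**Figure D4:**
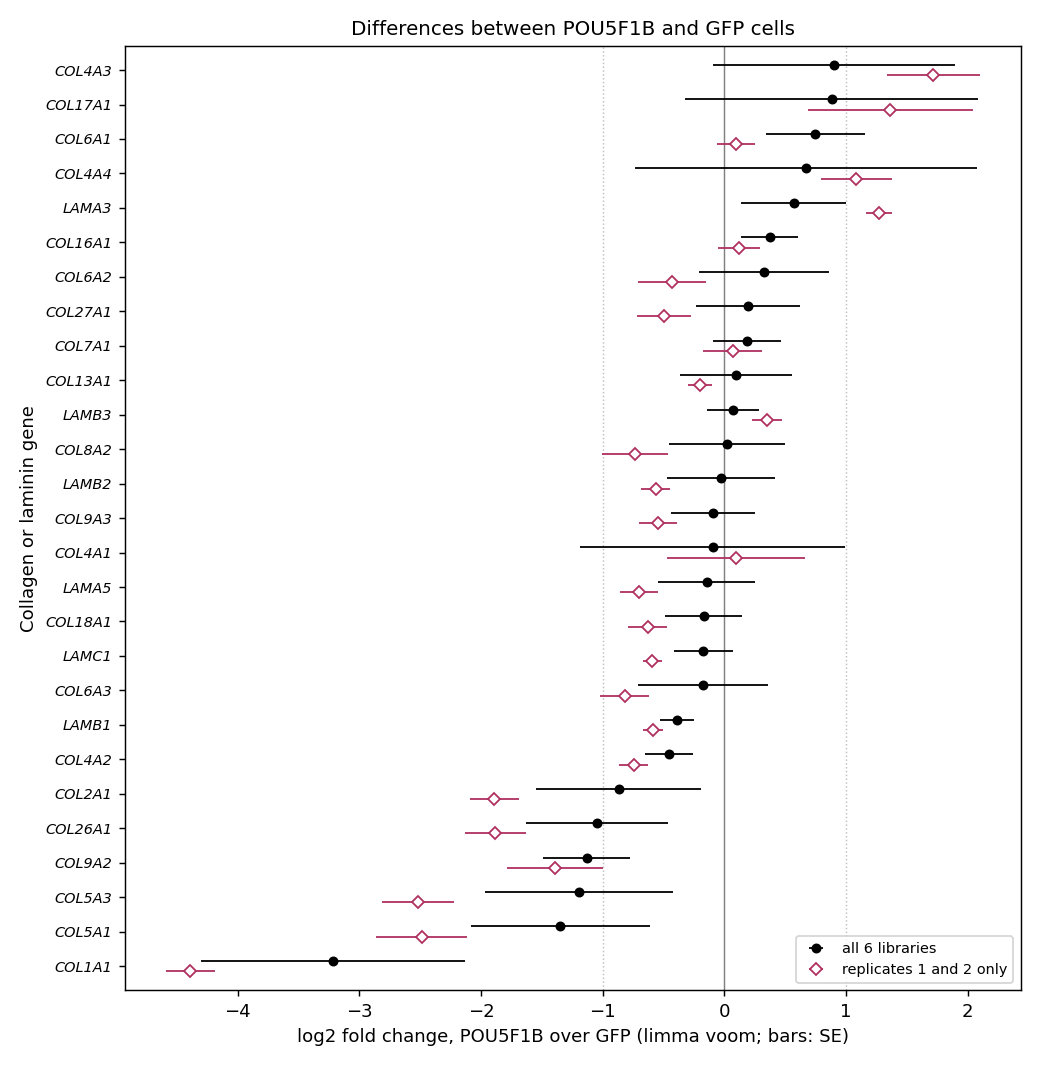
Log2 fold change of POU5F1B over GFP with its standard error for the 27 tested chains, over all 6 libraries and over replicates 1 and 2 only. Over 6 libraries 15 chains lie below 0 and no adjusted p is under 0.05, and over replicates 1 and 2 the fibril-forming chains COL1A1, COL2A1, COL5A1 and COL5A3 lie furthest below 0.

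Over all 27 chains the median log2 fold change was -0.09, with 15 lower in POU5F1B, beside -0.02 over all tested genes. With each library left out in turn it ranged from -0.46 without GFP replicate 3 to 0.11 without GFP replicate 1. It was -0.09 for the 21 collagens and -0.08 for the 6 laminins. Over replicates 1 and 2 alone the median of the 27 chains was -0.56, with 18 lower, beside -0.005 over all tested genes. In that comparison 9 of 27 chains passed the threshold by limma voom, against 8.36% of all tested genes. The 3 higher were COL4A3, COL4A4 and LAMA3 (background 3.21%), and the 6 lower were COL1A1, COL2A1, COL5A1, COL5A3, COL9A2 and COL26A1 (background 5.15%). With all 6 libraries kept but weighted by quality, 7 of 27 chains passed, against 7.54% of all tested genes. The lowest weights were 0.111 for GFP replicate 3 and 0.575 for POU5F1B replicate 3. That fit therefore leaned on replicates 1 and 2 and is not separate support for the calls in that subset. Leaving out GFP replicate 3 alone, 6 passed (COL1A1, COL2A1, COL5A1, COL5A3, COL26A1 and LAMA3), against 4.16% of all tested genes. GFP replicate 3 was the lowest of the 6 libraries for 12 of the 27 chains, against 29.2% of all tested genes, and the highest for 3, namely COL4A1, COL17A1 and LAMA3, against 34.6%. Whether GFP replicate 3 or GFP replicates 1 and 2 better represent GFP cells cannot be told from these files.

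Genes that make, bind or sense collagens and laminins were taken from 3 lists. Of the 16 basement membrane partners 8 were tested, of the 34 collagen biosynthesis genes 29, and of the 19 collagen and laminin receptors 15. None of these passed the threshold by limma voom or edgeR. At an unadjusted p under 0.05, limma voom gave 1 partner higher and none lower, 3 biosynthesis genes higher and 1 lower, and 1 receptor higher and 2 lower, beside 6.07% of all tested genes higher and 5.82% lower. DAG1 is in the first and the last list, so 51 genes in all were tested. DESeq2 placed 1 of these 51, ITGA1, past the threshold, beside 1.62% of all tested genes. TINAGL1, PCOLCE2, SDC4 and ITGB1 had a DESeq2 adjusted p of 0.0227, 0.00846, 0.0128 and 0.0149, each under a 2-fold change. No share of all tested genes was computed for that limit without the fold. Over replicates 1 and 2 alone limma voom placed 8 past it, beside 8.36% of all tested genes. They were COLGALT2, ITGA1, ITGA10, ITGA2, NID1, NTN4, P3H2 and SPARC, of which only ITGA2 was higher in POU5F1B. The median log2 fold changes of the lists were -0.50, -0.04 and 0.01, beside -0.02 over all tested genes.

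Of the basement membrane partners, TINAGL1, which binds laminin, was at 210.2, 226 and 176 CPM in GFP and at 326, 289 and 302 CPM in POU5F1B libraries, without overlap (log2 fold change 0.59 ± 0.12, limma voom adjusted p = 0.207, and 0.48 over replicates 1 and 2). AGRN, the heparan sulphate proteoglycan agrin, differed by 0.09 ± 0.33, HSPG2, the proteoglycan perlecan, by -0.62 ± 0.32, and NTN4, a netrin that binds laminins, by -0.78 ± 0.46 on the log2 scale. With replicates 1 and 2 alone these differences were -0.27, -0.997 and -1.20, of which only that of NTN4 passed the threshold (limma voom adjusted p = 0.0492). Of the biosynthesis genes, the prolyl hydroxylase subunit P4HA2 had a log2 fold change of 0.57 ± 0.18, the procollagen C-proteinase enhancer PCOLCE2 0.69 ± 0.17 and the lysyl oxidase family member LOXL3 0.71 ± 0.24 (limma voom adjusted p = 0.306, 0.236 and 0.343). Without both replicate 3 libraries these were 0.70, 0.69 and 0.72. Their groups did not overlap. The fourth, P3H2, a prolyl 3-hydroxylase named after its values were seen, had 170, 207 and 90 counts in GFP and 10, 14 and 152 counts in POU5F1B libraries, so POU5F1B replicate 3 lay with the GFP libraries. The log2 fold change of P3H2 was -2.34 ± 0.88 over 6 libraries and -3.87 over replicates 1 and 2 (limma voom adjusted p = 0.366 and 5.91e-06). P4HB, the disulphide isomerase that is also a subunit of prolyl hydroxylase, and CRTAP, a subunit of the prolyl 3-hydroxylase complex, differed by -0.20 ± 0.14 and -0.01 ± 0.27 over 6 libraries and by -0.36 and -0.27 over replicates 1 and 2.

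Among the receptors, ITGA1, the integrin alpha chain that pairs with ITGB1 to bind collagen, had the largest change. ITGA1 counts were 1809, 2118 and 1277 in GFP replicates 1, 2 and 3 and 81, 83 and 231 in the POU5F1B replicates. Each GFP library was several times above each POU5F1B library, the replicate 3 libraries included. GFP cells averaged 142 ± 26.8 CPM and POU5F1B cells 11.1 ± 7.07 CPM, and the log2 fold change was -3.83 ± 0.38, with an adjusted p of 0.122 by limma voom. For ITGA1 the adjusted p was 0.107 by edgeR and 5.37e-14 by DESeq2. ITGB1, the common beta chain, was at 265, 262 and 323 CPM in GFP and at 195, 209 and 191 CPM in POU5F1B, without overlap (log2 fold change -0.51 ± 0.12, limma voom adjusted p = 0.235). SDC4, a syndecan that binds laminin and other matrix proteins, was at 225, 236 and 174 CPM in GFP and at 425, 452 and 301 CPM in POU5F1B, also without overlap (0.88 ± 0.20, limma voom adjusted p = 0.220). The laminin-binding alpha chains ITGA3 and ITGA6, which had the highest mean CPM of the list, differed by -0.26 ± 0.29 and 0.15 ± 0.21 on the log2 scale. The log2 fold changes of ITGA1, ITGB1, SDC4, ITGA3 and ITGA6 over replicates 1 and 2 were -4.50, -0.40, 0.91, -0.53 and 0.48, of which only that of ITGA1 was past the threshold (limma voom adjusted p = 3.89e-09).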

How the data were processed

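Counts of reads per gene were used, 1 table for each of 6 libraries. Per the study's methods, the authors aligned reads to hg19 with HISAT2 and counted them with featureCounts on genes and transposable elements together, and they deposited whole-number counts without normalization. The strand setting and annotation release were not given in the sources used here. Symbols, biotypes, exon lengths and coordinates came from GENCODE on GRCh37 (the build of hg19), and 87.4% of 63677 rows had a symbol. Depth was 10767947 to 12787637 counts per library, and floors of 3 counts cover counting error only.

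Genes were filtered with filterByExpr (edgeR 4.0.16), scaled by TMM and tested with voom in limma 3.58.1 (R 4.3.3), two-sided, with Benjamini-Hochberg adjustment over 14286 genes. The fits were tried on simulated counts whose spread between libraries was taken from replicates 1 and 2 only. That check did not cover a library as far from its group as GFP replicate 3. The fit had no block: same-numbered libraries deviated together with correlations of 0.242, 0.0883 and 0.165, under the 0.1 limit in 1 pair. Alternatives were edgeR, DESeq2 1.42.0, quality weights, other scalings and filters, the block, replicates 1 and 2 only, and each library left out.

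Values per library are given for chains with an unadjusted p under 0.05, the 10 highest in mean CPM and the chains of laminin-511, collagen IV and collagen VI. In each partner list the 2 highest in CPM and the 3 with the smallest p are named. LAMA3 and LAMB3 are named as a pair, and 1 further gene that meets the rule is not reported here and enters no count of chains. Other genes were named after their values were seen. The members and lists were chosen with earlier results of these data known.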

Additional observations from a re-analysis of the deposited data

How the results depend on the processing

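The 27 tested chains gave 0 past the threshold and 3 at an unadjusted p under 0.05 with limma voom (0% and 11.9% of all tested genes), and the counts moved as follows, with the share of all tested genes in parentheses. DESeq2 placed 1 chain and 1 partner gene past the threshold (1.62%), with 5 chains at an unadjusted p under 0.05 (13.5%). Sample quality weights placed 7 chains and 7 partner genes past it (7.54%), with 17 chains at an unadjusted p under 0.05 (40.1%). A filter of at least 1 count in total gave 6 chains at that p, of 47 tested (8.5%), and 1 partner gene past the threshold (0.015%). Replicates 1 and 2 alone gave 9 chains and 8 partner genes past the threshold (8.36%), 20 chains at an unadjusted p under 0.05 (40.2%) and a median log2 fold change of -0.56. Leaving out each library in turn gave 0 to 6 chains and 0 to 5 partner genes past the threshold, and 0 to 14 chains at an unadjusted p under 0.05. The upper ends came without GFP replicate 3, where 6 chains passed (4.16%) and 14 were at an unadjusted p under 0.05 (29.4%). At that p there were 0 chains without POU5F1B replicate 2 (6.75%), and 1 each without GFP replicate 1 (COL1A1, 9.23%), GFP replicate 2 (COL1A1, 6.95%) and POU5F1B replicate 1 (COL9A2, 5.19%). With the replicate block, 0 chains and 0 partner genes passed, so the block changed no call past the threshold among them. Of all tested genes 1 passed with the block, against 0 without it. At an unadjusted p under 0.05 the block gave COL1A1, COL9A2 and COL4A4 in place of LAMB1 (11.9%), and total counts gave COL1A1 and COL9A2 (11.9%). The cause of these differences was not tested.

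Of 548 log2 fold changes over 37 genes and the alternatives, 40 reversed. The sign of COL13A1 turned to -0.023 with edgeR, -0.026 with DESeq2, -0.20 with quality weights and -0.20 with replicates 1 and 2 only. With quality weights COL4A1 turned to 0.51, COL6A2 to -0.21 and AGRN to -0.11, and with replicates 1 and 2 only they turned to 0.094, -0.43 and -0.27. With total counts LAMB2 turned to 0.019 and CRTAP to 0.035, and CRTAP also turned, to 0.000221 with at least 1 count in total and to 0.014 with at least 10 counts in every sample. With 1 library left out, the log2 fold changes of genes that turned ranged from -0.91 to 0.91 for COL4A1, -0.34 to 2.12 for COL4A4, -0.28 to 0.70 for COL6A2, -0.81 to 0.21 for COL6A3, -0.48 to 0.13 for COL9A3, -0.60 to 0.10 for LAMA5, -0.58 to 0.31 for LAMB2, -0.14 to 0.27 for LAMB3, -0.48 to 0.077 for COL18A1, -0.44 to 0.39 for COL13A1, -0.34 to 2.07 for COL17A1, -0.28 to 0.29 for AGRN and -0.34 to 0.16 for CRTAP. COL1A1, COL9A2 and LAMB1 kept their direction in every alternative that tested them. This was largely set in advance, since they are the chains whose groups do not overlap, and it adds no support.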
